A study of Mus musculus with 8 samples.

Results

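The 40 probes described here carry names from the late part of the mouse microRNA (miRNA) catalogue: 22 numbered from miR-680 to miR-720, 6 from miR-1186 to miR-1198 and 12 from miR-1892 to miR-1907. They were chosen by number alone, without star names and without miR-1188, from the names in 6 comparison sheets that the authors deposited, and all 40 are among the 431 probes of the deposited value table. Cells were mouse embryonic fibroblasts (MEFs), connective-tissue cells grown from embryos, from littermates of the ATM+/+ or the ATM-/- genotype. ATM is a kinase activated by broken DNA. All cells grew in DMEM with fetal calf serum and were given neocarzinostatin (NCS), which cuts both strands of DNA much as radiation does, with RNA taken after 0, 4, 8 or 24 h. The 8 groups are therefore ATM+/+ and ATM-/- cells at each of the 4 times, with 1 array each, so no value has a replicate, and the number of arrays limits all precision. The labels do not say how the ATM allele was disrupted, whether a line came from 1 embryo or several, or what dose was given.

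A miRNA is cut from a hairpin transcript by the nucleases Drosha and Dicer and guides an Argonaute protein to messenger RNAs through its seed, bases 2 to 8. Many rodent entries with these numbers came from cloning or early deep sequencing and were later questioned, because their letters also occur in transfer RNA, ribosomal RNA or repeated DNA. miR-720, for example, was traced to a transfer RNA, and miR-712 to the spacer of the ribosomal RNA precursor. For such entries a probe's signal may come from an RNA other than a processed miRNA, and the arrays do not separate these sources. The question was how strong the signal of these probes was and how it stood after NCS in the 2 genotypes.

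The printed sequences are those of the entries on which the results turn, as RefSeq gives them for mouse build GRCm38.p6, with the seed in capitals. Of the 40 names, 23 matched 1 mature sequence and 3, miR-700, miR-702 and miR-1198, matched both arms of a hairpin. The other 14 are named only: miR-684, miR-685, miR-689, miR-694, miR-696, miR-709, miR-712, miR-714, miR-715, miR-720, miR-1186, miR-1196, miR-1897-5p and miR-1907. The first set is shown for letters that recur in windows around gene starts, as given below.
miR-706: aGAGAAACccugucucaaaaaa
miR-1187: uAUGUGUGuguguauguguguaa
miR-1192: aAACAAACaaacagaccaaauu
miR-1195: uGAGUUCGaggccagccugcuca
The second set holds the other members that averaged at least 2-fold below 0 h in ATM+/+ cells and have 1 mature sequence.
miR-692: aUCUCUUUgagcgccucacuc
miR-703: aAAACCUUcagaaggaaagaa
miR-1895: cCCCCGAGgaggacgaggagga
miR-1896: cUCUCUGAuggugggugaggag
miR-1903: cCUUCUUCuucuuccugagaca
The third set holds members with strong signal or with values above 0 h in ATM-/- cells.
miR-690: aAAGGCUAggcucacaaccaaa
miR-705: gGUGGGAGguggggugggca
miR-1892: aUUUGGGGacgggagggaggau
miR-1899: aGCGAUGGccgaaucugcuucc
miR-1902: aGAGGUGCaguaggcaugacuu

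No seed was shared between members. Of the 23 members with 1 mature sequence, 20 had a seed that no other mature miRNA of the table carries. The exceptions were miR-1192, with the seed of miR-495-3p and miR-12200-5p, miR-1903, with that of miR-12183-5p, and miR-705, with that of miR-6922-5p, miR-6993-5p and miR-7008-5p. RefSeq places miR-1187 at chr5:82798964-82798986 on the minus strand, miR-1195 at chr17:70860558-70860580 on the minus strand, miR-706 at chr6:120034290-120034311 on the minus strand and miR-1192 at chr19:23149450-23149471 on the plus strand. RefSeq lists 3 genes each for miR-680 and miR-692 and 2 for miR-1906, while the other 20 have 1 listed gene. The genome was not searched for further copies.

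Each mature sequence was then searched for stretches of 15 bases that also stand, on either strand, in the 32851 windows around gene starts that RefSeq gives, from 250 bases before to 50 after, leaving out the window of its own gene. A stretch of miR-706 was found in 56 windows, one of miR-1187 in 33, one of miR-1195 in 22 and one of miR-1192 in 10. Those 4 of 23 members (17.39%) reached 10 windows or more, against 22 of the 1679 mature sequences in the table (1.31%) and 3 of 97 other named probes with 1 mature sequence (3.09%). At least 1 window was found for 16 of the 23, against 27.1% of the table. Among the 4, miR-1187 holds a run of 11 bases that repeats every 2 bases, and miR-1192 one of 13 bases that repeats every 4. miR-706 holds a run of 6 equal bases, and miR-1195 no run of equal bases longer than 2. Whether any of the 4 belong to the same repeat was not tested. No repeat annotation was used, so the windows are not assigned to a repeat family. The GC content of the 23 ran from 27.3% to 75% with a median of 59.1%, against a median of 52.4% for other named probes.

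Signal was given per sheet as a normalized intensity, which the authors deposited for each pair of a treated array and its 0 h array. The sheets list 37 of the 40 members at all 3 times in ATM+/+ cells, and in ATM-/- cells 28 at 4 h, 25 at 8 h and 20 at 24 h. miR-681, miR-1196 and miR-1198 are in no ATM+/+ sheet. The rule by which a probe was listed is not given in the sources used here. At 0 h the listed members ran from 21.5 to 69338 in ATM+/+ cells and from 18.2 to 81310 in ATM-/- cells, with medians of 94.3 and 114, against 69.2 and 56.7 for all listed probes. The brightness of different probes also depends on labelling and base pairing, so it is not an order of abundance.

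**Figure D1:**
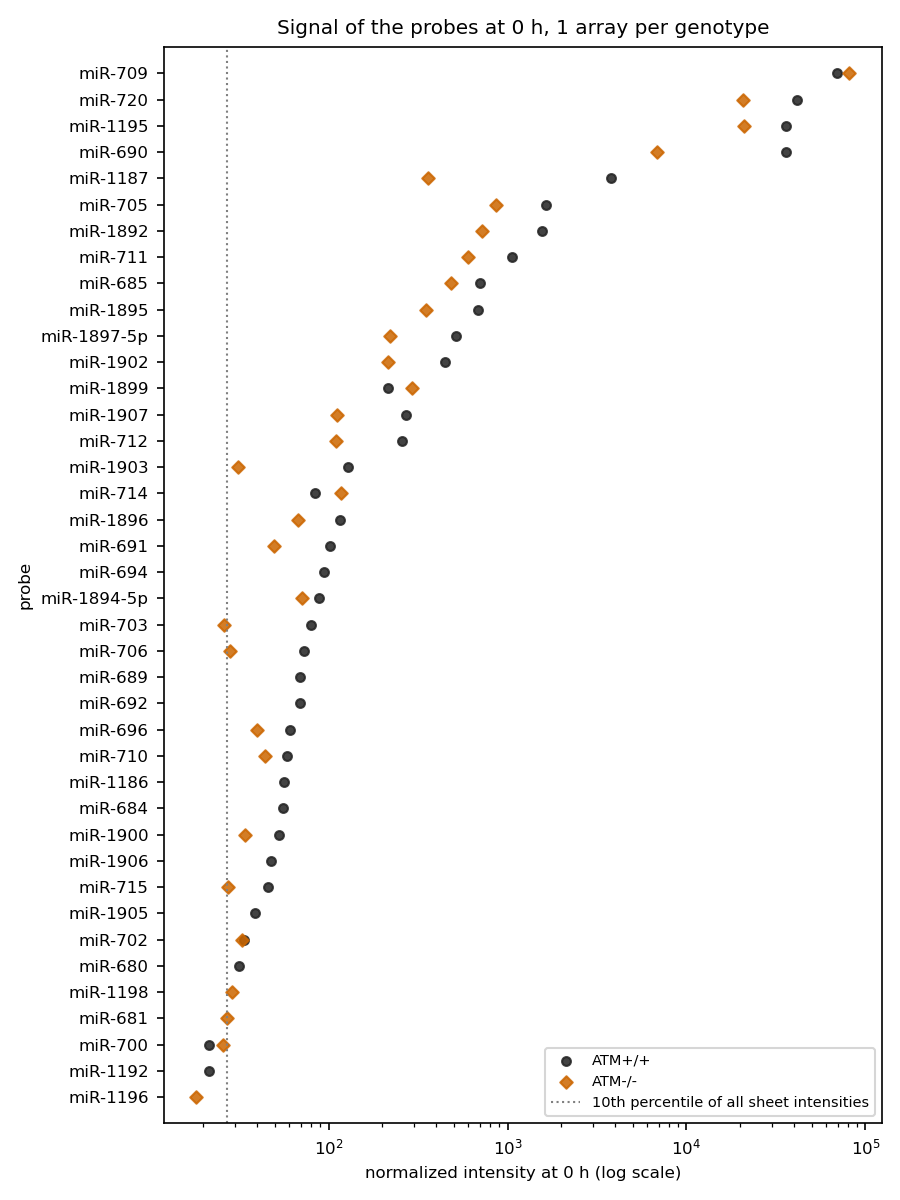
Normalized intensity at 0 h (log scale) of each member listed in a sheet, as black circles for the ATM+/+ array and orange diamonds for the ATM-/- array, with the 10th percentile of all sheet intensities, 27.2, as a dotted line. miR-709, miR-720, miR-1195 and miR-690 stand apart at 6836 or more in both genotypes, and 19 of 37 ATM+/+ values lie under 100.

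Members held 6 of the 10 brightest probes of the 0 h array in each genotype. The 0 h intensities of these were 69338 for miR-709, 41464 for miR-720, 36115 for miR-1195, 36083 for miR-690, 3787 for miR-1187 and 1643 for miR-705 in ATM+/+ cells. In ATM-/- cells they were 81310 for miR-709, 20945 for miR-1195, 20566 for miR-720, 6836 for miR-690, 864 for miR-705 and 718 for miR-1892. Together the members made up 74.3% of the summed intensity of all listed probes at 0 h in ATM+/+ cells and 78.0% in ATM-/- cells, nearly all of it from the first 4, with 69.5% and 75.1%. At the other end, 15 of the 37 ATM+/+ members had at least 1 array under 27.2, the 10th percentile of all sheet intensities, below which ratios are uncertain. Of the fixed fibroblast markers 7 of 8 were listed in each genotype, at a median percentile of 94.5 and 89.2 of the sheet. They ran from 329 to 1524 in ATM+/+ cells and from 32.3 to 1027 in ATM-/- cells. Other listed marker sets had median percentiles of 9.32 to 58.2 in ATM+/+ cells. In ATM-/- cells these were 9.46 to 80.5, the highest for 1 epithelial marker, miR-141. Liver and endothelial markers were not listed. Muscle markers were listed for 4 of 4 (66.7 to 276 in ATM+/+ and 29.0 to 122 in ATM-/- cells), blood markers for 3 of 7 and 1 of 7 (26.5 to 32.8), epithelial ones for 3 of 5 and 1 of 5 (19.4 to 368), pluripotent ones for 4 of 10 and 2 of 10 (26.5 to 58.8) and neural ones for 1 of 3 and 0 of 3. The part of other cell types in the members' signal was not tested, and in bulk RNA fewer cells of a type and less RNA per cell cannot be told apart.

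miR-709, reported in mouse as a nuclear miRNA that acts on the miR-15/16 precursor, needs a separate reading. Its intensities over the 4 times were 69338, 61802, 47795 and 31458 for the ATM+/+ genotype and 81310, 52710, 47118 and 78298 for ATM-/-. The coefficient of variation between its spots was 0.00088% to 0.0107% on 7 of the 8 arrays, where it was the brightest probe, and 24.96% on the ATM+/+ array at 24 h, where it ranked the third. On the same 8 arrays the other 3 bright members, miR-720, miR-1195 and miR-690, had coefficients of 0.61% to 46.8%. Whether spots of miR-709 reached the upper limit of the scanner is not given in the sources used here and was not tested, so its ratios between those 7 arrays are listed with the others but not read as a response.

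Responses were taken from the deposited value table, which gives each array as a ratio to the 0 h array of its genotype. They are stated as log2 ratios, and a value past 1 in size is called 2-fold. Intensities beside them come from the sheets, so a printed log2 ratio is not the ratio of the printed intensities. The value table lay above the sheets by a median, in order of time, of 0.06, 0.16 and 0.34 for the ATM+/+ genotype, and of 0.09, 0.61 and 0.05 for ATM-/-. In ATM+/+ cells the late-numbered miRNAs lay mostly below 0 h. Their median log2 ratio was -0.66 at 4 h, -0.45 at 8 h and -0.66 at 24 h, against 0.03, 0.23 and -0.12 for all 431 probes. At each of the 3 times 33 of the 40 were below 0 h, against 49.2%, 32.9% and 55.2% of all probes. At least 2-fold lower were 15, 6 and 13 members (9.74%, 4.18% and 13% of all probes), and at least 2-fold higher were 2, 1 and 1 (7.19%, 6.03% and 10.4%). The 3 times share 1 array at 0 h and are not independent of one another.

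**Figure D2:**
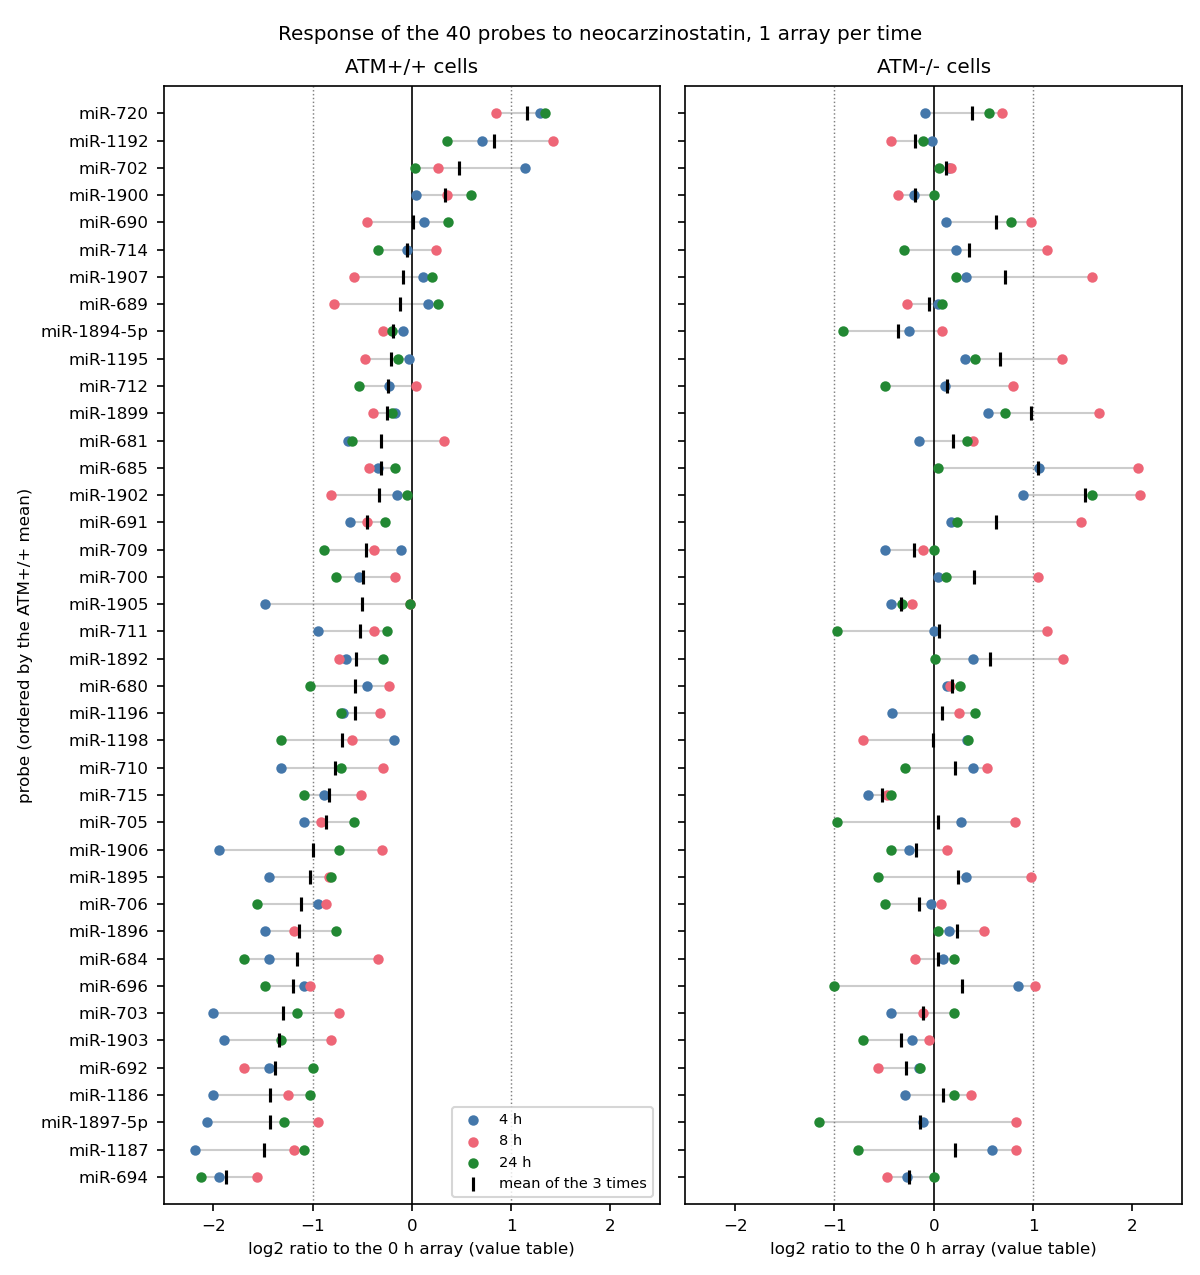
Log2 ratio to 0 h within each genotype (horizontal axis) for each of the 40 probes (rows, ordered by the ATM+/+ mean) at 4 h (blue), 8 h (red) and 24 h (green), with the mean of the 3 times as a black bar and 2-fold as dotted lines. In ATM+/+ cells 35 of 40 means are below 0 (49.2% of all probes), and in ATM-/- cells 15 are (62.9%).

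On the mean of the 3 times, 12 members were at least 2-fold lower in ATM+/+ cells, against 7.19% of all probes, and 1 was at least 2-fold higher, against 6.03%.  Their 0 h signal differed widely: 1 of the 8 members at or above an intensity of 1000 was among them, 4 of the 10 from 100 to under 1000, and 7 of the 19 under 100. The median of the means was -0.49, -0.39 and -0.77 in these 3 classes. Of the 12, 7 had an array under the intensity of 27.2, which leaves their sizes and order uncertain.

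miR-1187, whose letters follow the UG repeat printed above, had the strongest signal among the 12. Its ATM+/+ intensities were 3787 at 0 h and 747, 1486 and 1309 at 4, 8 and 24 h, and its log2 ratios were -2.18, -1.18 and -1.09, a mean of -1.49 ± 0.61 (SD over 3 times). All 3 treated arrays stood at least 2-fold under 0 h. miR-1897-5p ran from 517 at 0 h to 133, 234 and 175, with a mean log2 ratio of -1.43 ± 0.57. miR-1895 ran from 687 to 238, 334 and 285, with a mean of -1.03 ± 0.35. For these 3 miRNAs the lowest array was that at 4 h.

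miR-694 had the lowest mean of all 431 probes, -1.87 ± 0.29, with intensities of 94.3 at 0 h and 19.2, 32.8 and 15.1 afterwards. miR-1186 stood at -1.43 ± 0.51, with 56.1 at 0 h and 17.9, 32.4 and 34.6 later. miR-692 stood at -1.37 ± 0.35, with 69.2 at 0 h and 31.8, 22.6 and 22.0 later. Each of these 3 had treated arrays under 27.2, so the lower end of their range is not resolved. miR-1903 (128 at 0 h, then 34.0, 55.7 and 35.1) averaged -1.34 ± 0.54, and miR-1896 (116, then 50.5, 62.8 and 52.3) averaged -1.14 ± 0.36. Both kept every array above that limit.

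The remaining members of this group were dim at 0 h. miR-703 averaged -1.30 ± 0.64 with an intensity of 79.8 at 0 h and 16.7 to 47.1 later, and miR-684 averaged -1.15 ± 0.72 with 55.8, 18.3, 39.8 and 10.4. miR-696, known in mouse skeletal muscle as a repressor of the mitochondrial coactivator PGC-1alpha, averaged -1.20 ± 0.24 with 60.7, 25.5, 33.8 and 18.6. miR-706 averaged -1.12 ± 0.38 with 73.1, 34.9, 38.9 and 18.6. In each of these 4 at least 1 treated array lay under the limit.

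The brighter members outside the 12, other than miR-720, averaged within 2-fold of 0 h in the value table, as the cut for the 12 requires. miR-1195 averaged -0.21 ± 0.23, with intensities of 36115, 34648, 23193 and 27304 over the 4 times. miR-690, studied in mouse macrophage vesicles for its effect on insulin sensitivity, averaged 0.01 ± 0.42, with 36083, 37565, 23804 and 37187. miR-705 averaged -0.86 ± 0.26, with 1643, 731, 772 and 852, and its mean log2 ratio in the sheets was past 2-fold, at -1.07. miR-1892 averaged -0.56 ± 0.24 (1566, 925, 831 and 1054), and miR-711 averaged -0.52 ± 0.37 (1066 at 0 h and 517 to 715 later). Of these, only miR-690 had treated arrays on both sides of 0 h, while miR-1195 at 4 h, at -0.03, was level with it. miR-712, the entry traced to the ribosomal spacer, averaged -0.24 ± 0.29, with 258, 189, 206 and 120.

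The ATM+/+ values that stood above 0 h each time were those of miR-720 with a mean of 1.16 ± 0.27, miR-1192 with 0.83 ± 0.54, miR-702 with 0.48 ± 0.58 and miR-1900 with 0.33 ± 0.28. For the first 3 the sign depended on the source. In the value table miR-720 stood at 1.29, 0.85 and 1.34, whereas the authors' deposited table gives 0.16, -0.38 and -0.15. For miR-1192 the value table gives 0.70, 1.42 and 0.36, and the authors' deposited table -0.97, -0.15 and -1.36. miR-702 averaged -0.10 in the authors' deposited table. The spots of these 3 differed most on the ATM+/+ 0 h array: their coefficients of variation at 0 h were 46.8%, 109% and 75.8%, against 2.4% to 3.3% for miR-720 on the treated arrays, 5.7% to 27.6% for miR-1192 and 15.1% to 33.6% for miR-702. miR-1192 also had no ATM+/+ intensity over 21.5.

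**Figure D3:**
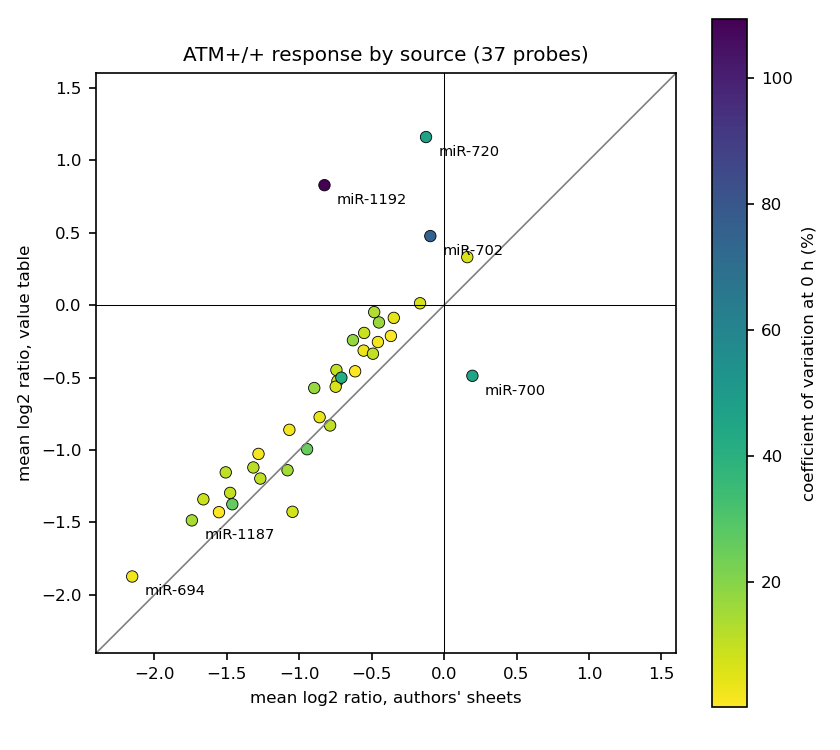
Mean log2 ratio to 0 h over 4, 8 and 24 h in ATM+/+ cells from the value table (vertical) against that from the authors' deposited table (horizontal) for the 37 members listed in all 3 sheets, coloured by the coefficient of variation between spots at 0 h in percent. Most points lie along the diagonal, while miR-720, miR-1192, miR-700 and miR-702, with coefficients of 45.7% to 109%, lie off it.

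For the other members both sources gave much the same picture. The mean had the same sign in both for 32 of the 37. At least 2-fold lower on the mean in both were 12 members, of 13 in the authors' deposited table, where miR-705 was added. On the sheet mean, 42 probes were that much lower, of 229 in all 3 ATM+/+ sheets and the value table. miR-700 stood at -0.49 ± 0.30 in the value table and at 0.20 in the authors' deposited table, with a coefficient of variation of 45.7% at 0 h. A coefficient of 40% or more at 0 h was found for 5 of 37 members and for 24 of all 311 probes listed in the ATM+/+ sheet at 4 h. By the p-values in the authors' deposited table, whose test is not given in the sources used here, 23, 25 and 29 of the 37 members were lower at p under 0.05 at 4, 8 and 24 h (27%, 29.2% and 36.1% of all listed probes), and 0, 0 and 1 were higher (33.1%, 27.2% and 24.6%). At least 2-fold lower in the authors' deposited table were 17, 8 and 16 (18.3%, 8.39% and 17.6%). With 1 array per group, these p-values cannot hold the spread between cultures.

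Compared with other lists, the late-numbered miRNAs stood with the Sfmbt2 cluster, rodent repeat-like miRNAs of an intron of the Sfmbt2 gene, and away from let-7, a conserved family that represses growth genes. The median of the mean ATM+/+ log2 ratios was -0.54 for the 40 members, -0.76 for 27 probes of the Sfmbt2 cluster, 1.19 for 8 of let-7, 0.25 for all 232 named probes outside the members and 0.01 for all 431 probes. By number, it was -0.51 for the 22 members from miR-680 to miR-720, -0.64 for the 6 from miR-1186 to miR-1198 and -0.53 for the 12 from miR-1892 to miR-1907. Over the 23 members with 1 mature sequence, GC content and the ATM+/+ mean had a Spearman rho of 0.16 and a Pearson r of 0.05, given as a description, since the points share the same arrays.

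**Figure D4:**
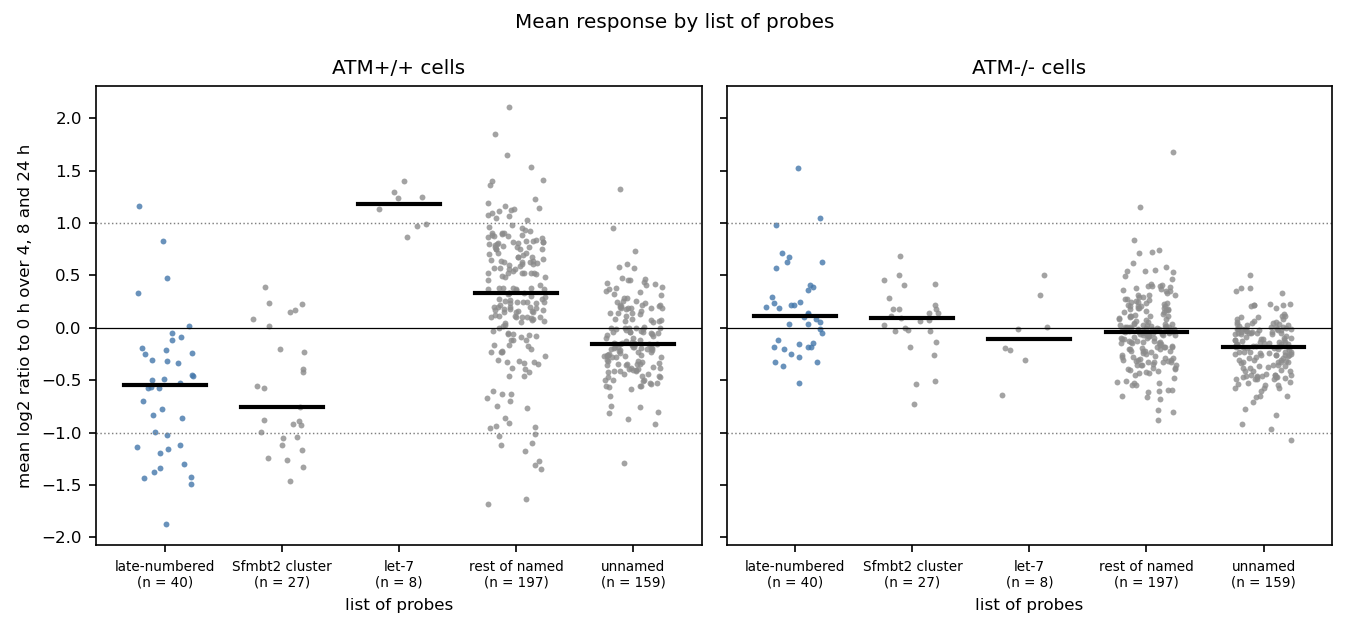
Mean log2 ratio to 0 h over 4, 8 and 24 h (vertical) of each probe by list, in ATM+/+ cells on the left and ATM-/- cells on the right, with the late-numbered miRNAs in blue, the rest of the 431 probes in grey, the list median as a black bar and 2-fold as dotted lines. In ATM+/+ cells the medians are -0.54 for the late-numbered miRNAs and 1.19 for let-7, and in ATM-/- cells they are 0.11 and -0.10.

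In ATM-/- cells the same probes did not lie low in the value table. The members' medians were 0.07, 0.45 and 0.01 at 4, 8 and 24 h, against -0.23, 0.03 and 0 for all probes. Below 0 h were 17, 12 and 17 of the 40 (67.5%, 48.3% and 42.5% of all probes). At least 2-fold higher were 1, 11 and 1 members (1.16%, 5.1% and 0.696%), and at least 2-fold lower were 0, 0 and 2 (4.41%, 3.02% and 2.55%). The 11 at 8 h were miR-685, miR-691, miR-696, miR-700, miR-711, miR-714, miR-1195, miR-1892, miR-1899, miR-1902 and miR-1907. That count rests on the value table, which at 8 h lies above the authors' deposited table by a median of 0.61 in ATM-/- cells: 2 of the 25 members listed there, miR-685 and miR-1902, were at least 2-fold higher (2.6% of listed probes). At 4 and 24 h the authors' deposited table has 0 and 1 members at least 2-fold higher (1.08% and 2.38%), and at the 3 times 0, 0 and 5 at least 2-fold lower (0.541%, 5.84% and 12.7%). The listed members had medians of -0.03, 0.25 and -0.31 there, against 0.08, -0.10 and -0.08 for all listed probes. At 24 h they thus lay lower than the listed probes as a whole. By the p-values of that source, 6, 11 and 5 of the 28, 25 and 20 listed members were higher (20%, 17.5% and 16.7% of listed probes). Lower were 3, 3 and 9 (6.49%, 20.8% and 27%).

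On the mean of the 3 times, 2 members were at least 2-fold higher in ATM-/- cells (0.928% of all probes) and 0 at least 2-fold lower (0.232%). miR-1902 had intensities of 214 at 0 h and 330, 528 and 576 at 4, 8 and 24 h, and log2 ratios of 0.90, 2.08 and 1.59, a mean of 1.52 ± 0.59. Every treated array was above 0 h, and in the authors' deposited table its log2 ratios were 0.62, 1.30 and 1.43. miR-685 had intensities of 485, 899, 1236 and 490, and a mean of 1.05 ± 1.01, with the 24 h array back near 0 h. miR-1899 followed at 0.98 ± 0.60, with 294, 358, 579 and 450.5. miR-1907 averaged 0.71 ± 0.76 (111, 122, 208 and 128), miR-1195 0.67 ± 0.54 (20945, 22842, 31639 and 26061) and miR-690 0.63 ± 0.45 (6836, 6716, 8253 and 11203).

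The lowest ATM-/- means were those of miR-715 at -0.53 ± 0.12, miR-1894-5p at -0.36 ± 0.51, miR-1905 at -0.32 ± 0.11, miR-1903 at -0.32 ± 0.35 and miR-692 at -0.28 ± 0.24. miR-1905 and miR-692 are in no ATM-/- sheet, and miR-715 and miR-1903 in 1 each, so these 4 values have little signal behind them. miR-1187, the bright member with the lowest ATM+/+ mean, averaged 0.22 ± 0.86 in ATM-/- cells, with intensities of 361, 530, 417 and 211. miR-1897-5p averaged -0.14 ± 0.99 (221, 205, 263 and 93.7), and miR-705 0.04 ± 0.92 (864, 938, 1002 and 423). All 3 were lowest at 24 h.

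The ATM+/+ response minus the ATM-/- response gave a median of -0.89 over the 40 members, against 0.17 over all probes. By time it was -0.86, -0.92 and -0.45 at 4, 8 and 24 h, with 18, 19 and 9 members at or below -1 (11.1%, 11.8% and 12.8% of all probes) and 1, 1 and 0 at or above 1 (15.1%, 16.7% and 10.2%). It was below 0 for 32, 34 and 32 members (33.4%, 36.2% and 54.8% of all probes) and on the mean for 35 (42%). The difference of the means was at or below -1 for 16 members (8.82% of all probes) and at or above 1 for 1, miR-1192 at 1.01 ± 0.74 (9.98%). miR-1902 had the lowest difference, -1.86 ± 0.94 (SD over 3 times), followed by miR-1187 with -1.70 ± 1.25, miR-694 with -1.63 ± 0.52, miR-1186 with -1.52 ± 0.26 and miR-696 with -1.49 ± 0.88. In miR-1187, miR-694, miR-1186 and miR-696 most of the difference lay in ATM+/+ values below 0 h. In miR-1902 most of it lay in ATM-/- values above 0 h. miR-694, miR-1186 and miR-1192 are in no ATM-/- sheet, so their ATM-/- ratios have no listed intensity behind them. Of the 40 members, 31 are in at least 1 ATM-/- sheet and 20 in all 3, which limits the counts above in the same way. Highest after miR-1192 were miR-720 at 0.78 ± 0.61, miR-1900 at 0.52 ± 0.24, miR-702 at 0.35 ± 0.56 and miR-1894-5p at 0.17 ± 0.54. For miR-720, miR-702 and miR-1192 the ATM+/+ side carries the uneven 0 h spots described above.

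At all 3 times 9 members lay below 0 h in ATM+/+ cells and above it in ATM-/- cells, against 3.94% of all probes. They were miR-680, miR-685, miR-691, miR-700, miR-1195, miR-1892, miR-1896, miR-1899 and miR-1902. For 4 of them, miR-685, miR-1195, miR-1899 and miR-1902, every sign was the same in the authors' deposited table. The reverse pattern was found for miR-1192 alone, against 5.8% of all probes. Of the 27 Sfmbt2 probes 2 showed the first pattern and none the second, and of 8 let-7 probes 0 showed the first and 1 the second.

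The response fit, limma with the 3 treated times taken as repeats over all 431 probes, called 0 probes at a Benjamini-Hochberg adjusted p under 0.05 in either genotype or in their difference. At an unadjusted p under 0.05 it held 60, 4 and 27 probes for ATM+/+, ATM-/- and the difference (13.9%, 0.928% and 6.26%), of which 11, 1 and 4 were members. The lowest adjusted p of a member was 0.109 in limma, for miR-694 in ATM+/+ cells, with a log2 ratio of -1.87 and a standard error of 0.39. For miR-1902 in ATM-/- cells the limma adjusted p was 0.996 with a standard error of 0.49 around 1.52. No response or response difference of a member therefore passed the test. The labels do not say that arrays came from separate cultures, and the fit treats different times as repeats.

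Comparing the treated arrays with one another leaves the 0 h array out. In ATM+/+ cells, from 4 to 8 h, the value table had 8 members at least 2-fold higher (6.03% of all probes) and 0 lower (0.232%), with a median of 0.28. They were miR-684, miR-703, miR-710, miR-1187, miR-1897-5p, miR-1903, miR-1905 and miR-1906. Of 37 members in the authors' deposited table, 4 were that much higher and 1 lower (3.91% and 0.435% of the probes listed at both times), with a median of 0.12. From 4 to 24 h the value table gave the 40 members a median of 0.10. At least 2-fold lower were 2 (6.73% of all probes), and at least 2-fold higher were 3 (3.71%). For the 12 members from miR-1892 to miR-1907 the value table gave a median of 0.56. In the authors' deposited table the median of the 37 listed members over 4 to 24 h was -0.19, with 2 lower (3.8%) and 0 higher (1.27%). The value table gave these 37 a median of 0.11. For all 237 probes listed at both times the medians were -0.14 and 0.11, so the change of sign between sources was not particular to the members. From 8 to 24 h the median in the value table was -0.12, with 2 lower (13%) and 1 higher (0.464%). In the authors' deposited table it was -0.28, with 5 of 37 lower (4.72%) and 0 higher (0%), while the value table gave the same 37 a median of 0.03. All ratios to 0 h in a genotype share its single 0 h array, and a deviation of that array cannot be told apart from a response. Arrays lay in pairs on 4 chips, 0 with 4 h and 8 with 24 h of a genotype. The ATM+/+ medians within a chip were thus -0.66 on the first and -0.12 on the second.

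In ATM-/- cells the ratios between treated arrays that involve 8 h depended on the source. The value table lay above the sheets by a median of 0.61 at 8 h, against 0.09 and 0.05 at the other times. From 8 to 24 h, within 1 chip, the value table gave the members a median of -0.53, with 13 of 40 at least 2-fold lower (9.05% of all probes) and 1 higher (3.25%). For the 20 members that the authors' deposited table lists at both times, the value-table median was -1.26, against -0.42 for all 99 probes so listed. Of these 20 the value table had 12 at least 2-fold lower (30.3%) and 0 higher (1.01%). In the authors' deposited table the same 20 had a median of -0.69, against 0.20 for those 99 probes. There 5 of the members were at least 2-fold lower (17.2%) and 0 higher (4.04%). Those 5 were miR-711 at -1.43, miR-1897-5p at -1.49, miR-685 at -1.33, miR-705 at -1.24 and miR-712 at -1.12, and they were at least 2-fold lower in the value table too, at -2.11, -1.98, -2.01, -1.79 and -1.29. miR-1187 stood at -0.98 in the authors' deposited table and at -1.59 in the value table. For miR-690 and miR-720 the sign differed, with 0.44 for each in the authors' deposited table and -0.20 and -0.13 in the value table.

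From 4 to 8 h the value table gave the ATM-/- members a median of 0.39, with 6 at least 2-fold higher (5.34% of all probes) and 1 lower (1.62%). In the authors' deposited table, 0 of the 22 members listed at both times were 2-fold higher (0%) and 0 lower (6.84%). Their median there was 0.26, and the largest value was 0.91 for miR-691. For these 22 the value table gave a median of 0.82, with 5 higher (8.55% of the probes so listed) and 0 lower (2.56%). From 4 to 24 h the value table gave a median of 0.01, with 0 higher (5.1%) and 5 lower (5.57%). In the authors' deposited table the 20 members listed at both times had a median of -0.47, with 4 lower (16.8%) and 0 higher (0%). The value table gave these 20 nearly the same, a median of -0.46, with 4 lower (17.8% of the probes so listed) and 0 higher (0%).

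Levels of the genotypes were compared over the 120 probes listed in all 6 sheets, of which 20 are members, with the median of each array set equal. The sheets of the genotypes were normalized separately and each chip holds 1 genotype, so chip and genotype cannot be told apart, and the order of the genotypes rests on the scaling. limma with time as a block called 12 of the 20 members lower in ATM+/+ than in ATM-/- cells (35% of all 120 probes) and 2 higher (20.8%). Its median difference was -0.74 for the members and -0.33 for all probes. The fit gave all probes 1 standard error, 0.305, which understates the spread of the more variable ones. With each probe on its own spread, 2 of the 20 members were called lower and 0 higher, against 17 and 15 of all 120 probes. On that measure the members were not called more often than other probes.

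Those 2 were miR-1899 and miR-714. miR-1899 had ATM+/+ intensities of 214, 179, 144 and 147 at 0, 4, 8 and 24 h and ATM-/- intensities of 294, 358, 579 and 450.5. Its centred difference was -1.61, -1.97, -2.98 and -2.59, a mean of -2.29 ± 0.61 (SD over 4 times). An ordinary t-test on its own spread, without limma's pooling of variance over probes, gave a Benjamini-Hochberg adjusted p of 0.0361. miR-714 had 84.4, 71.1, 68.4 and 45.3 against 118, 119, 162 and 84.3. Its difference was -1.63, -1.71, -2.22 and -1.88, a mean of -1.86 ± 0.26, with the same adjusted p of 0.0361 by that t-test. Both were lower in ATM+/+ cells at 4 of 4 times, 0 h included, and under every scaling tried, as given in the closing section. The 4 times are not replicates of a genotype.

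**Figure D5:**
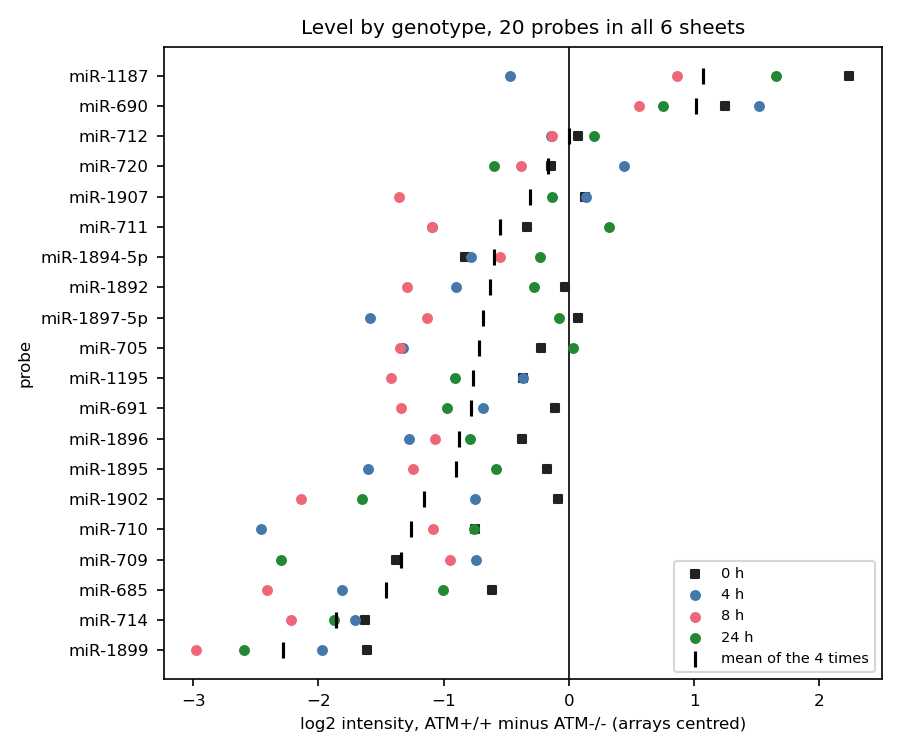
Log2 intensity in ATM+/+ minus ATM-/- cells after each array was centred on its median (horizontal axis), for the 20 members listed in all 6 sheets (rows), at 0 h (black squares), 4 h (blue), 8 h (red) and 24 h (green), with the mean of the 4 times as a black bar. miR-1899 and miR-714 lie below -1.6 at every time, and miR-690 lies above 0.5 at every time.

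Other differences were less even. miR-690 was higher in ATM+/+ cells at 4 of 4 times, by 1.25, 1.52, 0.56 and 0.75, a mean of 1.02 ± 0.44. miR-1187 averaged 1.07 ± 1.17, with 2.24 at 0 h and -0.47 at 4 h, so the order of the genotypes was opposite at these times. miR-1902 was level at 0 h, at -0.08, and stood at -0.75, -2.14 and -1.65 afterwards, a mean of -1.16 ± 0.92. miR-685 averaged -1.46 ± 0.81 and miR-710 -1.26 ± 0.81, both lower in ATM+/+ cells at 4 of 4 times. miR-709 averaged -1.34 ± 0.69, which is not read further because of its spots. miR-712 and miR-720, the entries traced to ribosomal and transfer RNA, averaged -0.00 ± 0.17 and -0.17 ± 0.45 and were not called.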

How the data were processed

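RNA of 8 samples was hybridised to 1 single-colour miRNA array each, 2 arrays to a chip. Per the labels' protocols, 4 µg of total RNA was extracted with Trizol and labelled with Kreatech ULS. The value table holds, as the authors deposited it, a linear ratio of each array to the 0 h array of its genotype. Per the file headers, the 6 sheets hold a normalized intensity, a coefficient of variation in percent, a log2 ratio and a p-value for each pair of arrays. The authors' deposited log2 ratio equals that of the 2 intensities, while no source used here names the test behind the p-value or how intensities were normalized. The sheets at 8 h and 24 h were multiplied by 1 factor each so that their 0 h intensities equal those of the sheet at 4 h.

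Ratios were taken as log2 with no pseudocount. limma 3.58.1 (R 4.3.3) was fitted over all 431 probes for the responses, with the treated times as repeats, and over 120 probes for the genotype levels, with time as a block. All p-values were adjusted by Benjamini-Hochberg at 0.05, and the fits were tested on simulated data. Tables and figures used Python 3.11.15, numpy 2.4.6, pandas 2.3.3, scipy 1.17.1 and matplotlib 3.10.9. Alternatives were the sheets in place of the value table, median centring, quantile normalization, a percentile scaling, a pseudocount of 16, a filter on low signal, each time left out and each of several blocks.

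Members described by name were those at least 2-fold from 0 h on the mean with 1 sign at all 3 times, the 5 highest and the 5 lowest means of each genotype and of their difference, the 6 brightest at 0 h in each genotype, and those with a known role or origin (miR-690, miR-696, miR-705, miR-709, miR-711, miR-712, miR-720 and miR-1195), 30 in all. miR-710, miR-714 and the members listed for a pattern fall outside this rule and were named after their values were seen. The members and lists were chosen with earlier results of these data known.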

Additional observations from a re-analysis of the deposited data

Results flagged for a closer look

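In 10 members every treated array stood on one side of 0 h in one genotype and on the other side in the second. The difference between the genotypes was not tested for any of them beyond the response fit, which called none. Below 0 h in ATM+/+ and above it in ATM-/- cells, the mean log2 ratio in ATM+/+ minus that in ATM-/- cells was -1.856 for miR-1902, -1.373 for miR-1896, -1.365 for miR-685, -1.233 for miR-1899, -1.134 for miR-1892, -1.08 for miR-691, -0.894 for miR-700, -0.885 for miR-1195 and -0.761 for miR-680. The opposite pattern, above 0 h in ATM+/+ and below it in ATM-/- cells, gave 1.012 for miR-1192. miR-680 and miR-1192 are in no ATM-/- sheet, and miR-700 has a coefficient of variation of 45.7% between spots at 0 h in ATM+/+ cells.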

How the results depend on the processing

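The 12 members at least 2-fold lower on the ATM+/+ mean became 5 of 22 with low signals left out and 2 for 24 h over 4 h, which leaves the 0 h array out. The median of -0.54 became -0.748 in the authors' deposited table, -0.325 without low signals, -0.675 without 8 h and 0.095 for 24 h over 4 h. The 1 member higher, miR-720, became 0 in the authors' deposited table, after quantile normalization and with the pseudocount of 16, 2 without 24 h and 3 for 24 h over 4 h. miR-720 itself stood at -0.125 in the authors' deposited table and, computed from it, with the pseudocount. In ATM-/- cells the 2 members higher became 1 in the authors' deposited table, with the pseudocount and without 8 h, and 0 for 24 h over 4 h, where 5 were lower. The 16 members lower in the response difference became 7 of 20 listed in the authors' deposited table, 9 of 19 without low signals, 6 of 20 with the pseudocount and 3 for 24 h over 4 h, where the median was 0.223 and 11 were higher. The 1 member higher became 0 in the authors' deposited table, after centring, after quantile normalization, without low signals and with the pseudocount. The causes were not tested. The sheets as the source for ratios between treated arrays were added after seeing the data. For genotype levels on the deposited scale, without centring, 2 members and 2 probes were lower and 4 members and 57 probes higher, and the median over all probes moved from -0.33 to 0.69. That scale reversed miR-691 (0.239), miR-705 (0.3), miR-1195 (0.252), miR-1895 (0.117), miR-1896 (0.14) and miR-1897-5p (0.335). miR-1899 and miR-714 stayed lower there, at -1.27 and -0.84, with limma adjusted p of 0.00192 and 0.0119. With each probe on its own spread, 2 members and 17 probes were lower and 0 and 15 higher. Without 8 h, 5 members were lower, without 0 h 1 was higher, and over probes at or above the 25th percentile of intensity 24 probes were lower. Time paired the arrays of the genotypes as a block, and with no replicate block 11 members were lower and 2 higher, against 12 and 2. 1 member shared its first 8 bases with another miRNA, against 3 that shared the seed. Depth cannot be stated for arrays, and signals near 27.2 limit 15 of the 37 ATM+/+ members.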
